A study of Mus musculus with 6 samples.

Results

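A set of 9 genes of the skeletal muscle lineage was followed in quadriceps RNA: the myogenic regulatory factors Myf5, Myf6, Myod1 and Myog, the MEF2 factors Mef2a, Mef2c and Mef2d, and the satellite cell genes Pax7 and Cdh15. They were taken by symbol from a table of 37477 Ensembl genes, and each symbol matched 1 Ensembl ID. The muscle came from 20-week-old C57BL/6 mice of 2 genotypes, 3 libraries each. KO mice carried a muscle-specific deletion of Esr1, the gene of estrogen receptor alpha, and WT mice were wild type. The sources used here give neither the driver of the deletion nor whether satellite cells carry it. Separate animals are not stated for the libraries, and p-values then measure only how these libraries spread, which may be technical.

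Skeletal muscle fibres are built and repaired by satellite cells, resting stem cells that lie between the fibre and its basement membrane and are marked by Pax7. Once activated, these cells turn on the basic helix-loop-helix factors Myf5 and Myod1, then Myog as they leave the cell cycle and fuse, while Myf6 stays on in mature fibre nuclei. Myogenic factors pair with E proteins and bind the E-box (CANNTG), and MEF2 factors, which bind an A- and T-rich site, act with them on the genes of the contractile apparatus.

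Library totals ran from 7809612 to 8560244 counts in KO and from 7388365 to 7733401 in WT. KO replicate 1 stood apart in the share of counts from the mitochondrial genome, 9.53%, against 6.14% to 7.46% in the other 5 libraries. The targeted gene Esr1 had 22, 16 and 16 counts in KO replicates 1, 2 and 3, against 50, 41 and 44 in WT replicates 1, 2 and 3. Its log2 fold change was -1.45 ± 0.23 (SE), with an adjusted p of 0.145 in edgeR's quasi-likelihood test, and it was lower in KO under every setting tried. The authors' deposited table gives Esr1 a log2 fold change of -1.43 and an adjusted p of 0.000152. The skeletal muscle markers Acta1, Ckm, Des, Mb, Ttn, Neb, Myh7, Myh2, Myh1 and Actn2 summed to between 208980 and 230960 CPM (counts per 1000000 counts of the scaled library) in KO and between 220340 and 262120 CPM in WT. Every one of these markers of skeletal muscle was present, and whether their levels match the label quadriceps was not tested. Of the 3 myosin heavy chain genes among them, the slow form Myh7 was the highest, at 21018 ± 1186 CPM in KO and 21746 ± 2635 CPM in WT (SD, n = 3 each). The fast forms were lower, with means of 9364 CPM in KO and 10380 CPM in WT for Myh2. For Myh1 the means were 4329 CPM in KO and 3363 CPM in WT.

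None of the 9 genes differed between KO and WT past the threshold. In edgeR's quasi-likelihood test 0 of 9 members had an adjusted p under 0.05, where 0% of the 13848 genes tested did. DESeq2 and limma voom likewise called 0 of the 9 members, and 2 and 1 of all genes. The log2 fold change was above 0 for 5 members and below 0 for 4, with a median of 0.03, beside -0.0024 over all genes tested. A single member, Myf6, had an unadjusted p under 0.05, a level that 4.26% of all genes reached. Myf6 was also the 1 member with every KO library above every WT library, as were 4.96% of all genes. No member had every KO library below every WT library, as 5.45% of all genes did. The adjusted p was 1 for all 9 members in the authors' deposited table.

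**Figure D1:**
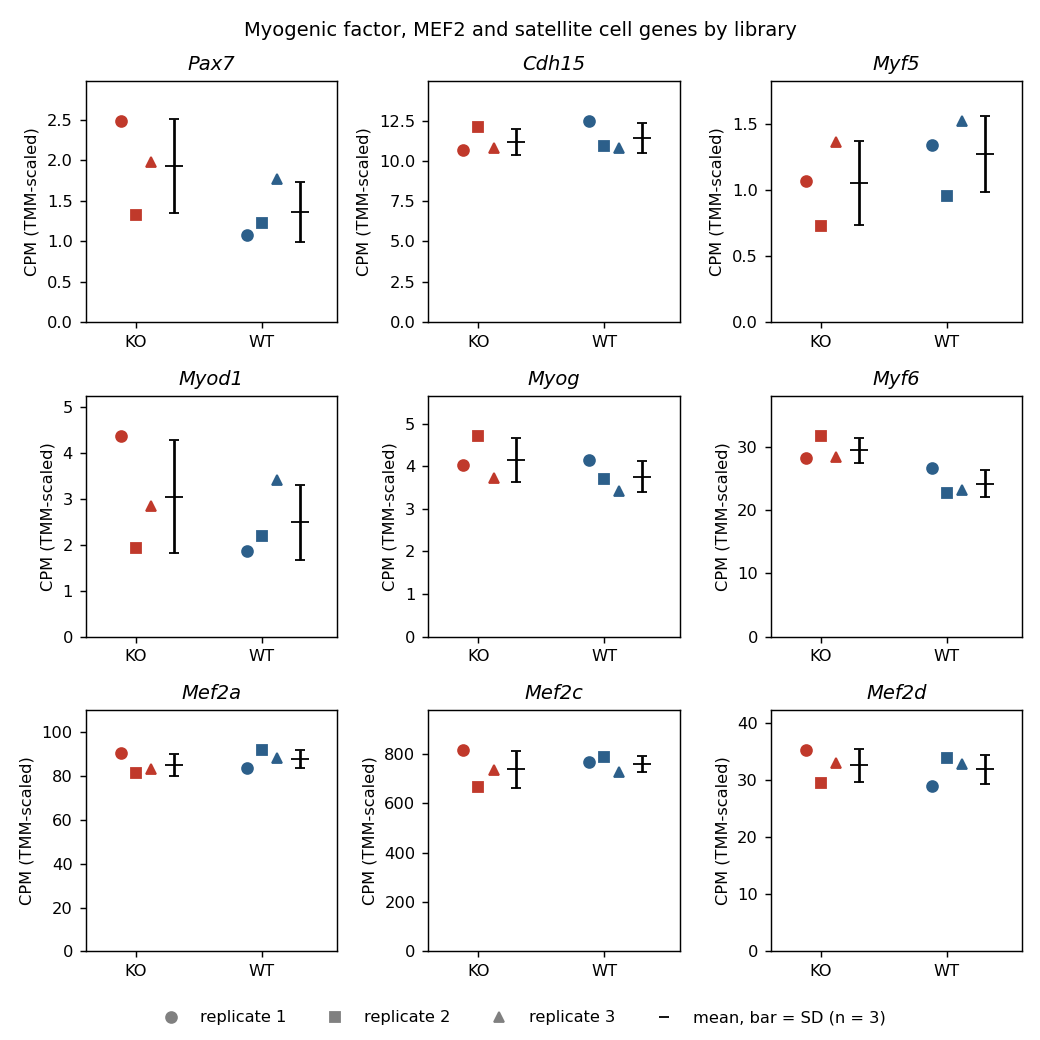
Level in CPM, scaled by the TMM method, of the 9 members in each library, KO at the left and WT at the right of each panel, with the mean and SD of 3 libraries at the side. KO and WT points overlap in every panel except that of Myf6, where KO libraries lie between 28.3 and 31.8 CPM and WT libraries between 22.7 and 26.7 CPM.

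The precision differed between members. Of these, 5 averaged at least 5 CPM (Myf6, Mef2a, Mef2c, Mef2d and Cdh15) and 4 averaged less (Pax7, Myf5, Myod1 and Myog). For 7 members the 95% interval of the fold change lay within a 2-fold change either way. The exceptions were Pax7, which could have been up to 2.37 times as high in KO, and Myf5, which could have been as low as 0.462 times. The tightest intervals were those of Mef2a and Mef2c, at 0.864 to 1.09 times and 0.862 to 1.10 times the WT level.

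**Figure D2:**
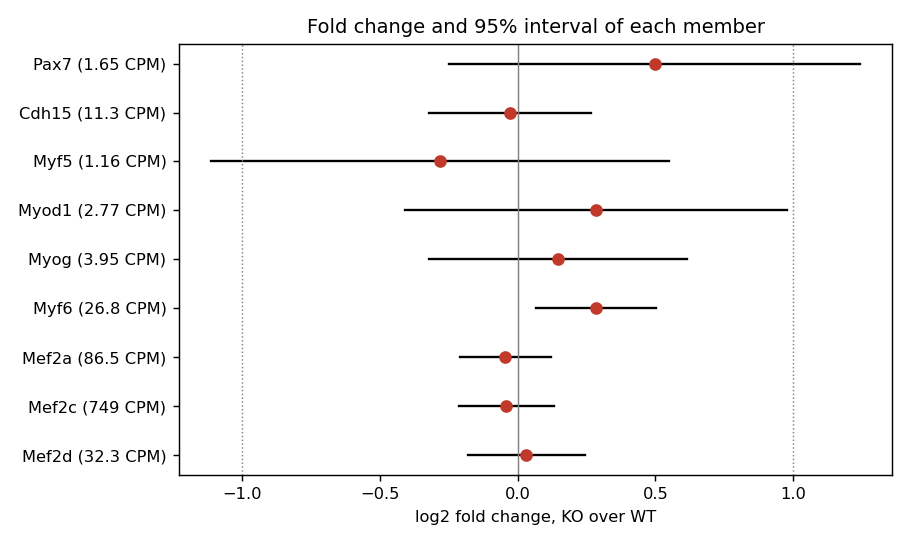
Log2 fold change of KO over WT for each member (red point) with its 95% interval (black line), from edgeR's quasi-likelihood fit; the mean level over all 6 libraries stands beside each name and the dotted lines mark a 2-fold change. The interval of Myf6 runs from 0.07 to 0.50 and leaves out 0, while the other 8 intervals hold it.

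Pax7, the paired-box factor that marks satellite cells and is needed to keep them in adult muscle, was the least abundant member per kilobase. It had 21, 11 and 16 counts in KO replicates 1, 2 and 3, against 8, 9 and 14 in WT replicates 1, 2 and 3. KO replicate 1 was the highest library and WT replicate 1 the lowest, and the groups overlapped through KO replicate 2 and WT replicate 3. The mean was 1.93 ± 0.580 CPM in KO and 1.36 ± 0.369 CPM in WT (SD, n = 3 each). The log2 fold change of 0.50 ± 0.35 (SE) did not pass (95% interval -0.25 to 1.24, adjusted p = 0.989 in edgeR's quasi-likelihood test). Pax7 entered the test through 3 KO libraries and 1 WT library at or above the 1.29 CPM that the low-count filter asked for. Without KO replicate 1 its log2 fold change was 0.27, and without WT replicate 3 it was 0.74. In whole muscle, a difference in the number of cells of a type and a difference in RNA per cell cannot be told apart.

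Cdh15 encodes M-cadherin, the adhesion protein that ties satellite cells and myoblasts to the fibre. Its counts were 90, 100 and 87 in KO replicates 1, 2 and 3, and 93, 80 and 85 in WT replicates 1, 2 and 3. The 6 libraries thus lay close together, with a mean of 11.2 ± 0.794 CPM in KO and 11.4 ± 0.927 CPM in WT (SD, n = 3 each). The log2 fold change was -0.03, with a 95% interval of 0.800 to 1.203 times the WT level and an adjusted p of 0.995 in edgeR's quasi-likelihood test. The sign turned without KO replicate 1 (0.0054) or WT replicate 1 (0.041). Replicates within a group varied by 7.65% of the mean, against the 10.6% that counting alone gives at this depth.

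The ratio of these satellite cell genes was compared per kilobase of annotated exon. Cdh15 stood at 7.73, 16.4 and 9.80 times Pax7 in KO replicates 1, 2 and 3, against 20.95, 16.0 and 10.9 times in WT replicates 1, 2 and 3. KO and WT overlapped, and the difference in mean log2 ratio of -0.52 had an exact two-sided permutation p of 0.3 (0.6 adjusted over the 2 ratios compared). It was -0.28 without KO replicate 1, -0.30 without WT replicate 1 and -0.83 without KO replicate 2. With 3 against 3 libraries this test cannot go below 0.1.

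Myf5 and Myod1 are the factors that commit cells to the muscle lineage, and both were scarce. Myf5 had 9, 6 and 11 counts in KO replicates 1, 2 and 3, and 10, 7 and 12 in WT replicates 1, 2 and 3. The groups overlapped nearly throughout. Its mean was 1.05 ± 0.319 CPM in KO and 1.27 ± 0.288 CPM in WT (SD, n = 3 each), and its 95% interval of 0.462 to 1.46 times the WT level was wide. Myod1, which can turn other cell types into muscle when forced on, had 37, 16 and 23 counts in KO replicates 1, 2 and 3, against 14, 16 and 27 in WT replicates 1, 2 and 3. KO replicate 1 was the highest and WT replicate 1 the lowest, as for Pax7, and the groups overlapped. The mean of Myod1 was 3.05 ± 1.24 CPM in KO and 2.50 ± 0.818 CPM in WT (SD, n = 3 each). Its log2 fold change of 0.28 ± 0.33 (SE) did not pass (adjusted p = 0.993 in edgeR's quasi-likelihood test) and rested on KO replicate 1, without which it was -0.072. KO replicate 1 was also the library with 9.53% mitochondrial counts, and the part of this in Pax7 and Myod1 was not tested. Replicates of Myod1 varied by 37.8% of the mean within groups, the widest spread of the 9 members, where counting alone gives 21.2%.

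Myog encodes myogenin, which drives myoblasts into fusion and differentiation. It had 34, 39 and 30 counts in KO replicates 1, 2 and 3, against 31, 27 and 27 in WT replicates 1, 2 and 3. WT replicate 1 lay among the KO values, so the groups overlapped. The mean was 4.15 ± 0.511 CPM in KO and 3.76 ± 0.369 CPM in WT (SD, n = 3 each). KO stood at 1.11 times WT, within a 95% interval of 0.800 to 1.53 times. The log2 fold change of 0.15 was 0.047 without KO replicate 2, 0.081 without WT replicate 3, and 0.22 without KO replicate 3 or WT replicate 1. Per kilobase, Myog stood at 1.14, 3.03 and 1.62 times Myod1 in KO replicates 1, 2 and 3, and at 2.76, 2.10 and 1.24 times in WT replicates 1, 2 and 3. The difference in mean log2 ratio was -0.12, with an exact two-sided permutation p of 0.9 (0.9 adjusted over the 2 ratios). Its sign turned without KO replicate 1 (0.20) or WT replicate 1 (0.14).

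The promoter of Myog is a textbook case of both factor families acting on a member of one of them, and that of Mef2c belongs to the most abundant member, so these are shown. Both stretches are on the plus strand of GRCm38.p6, from RefSeq, at chr1:134289754-134289988 for Myog and chr13:83503784-83504033 for Mef2c. They end just before the first annotated base of each gene. Capitals mark E-boxes (CANNTG, which reads the same on either strand) and the MEF2 motif, searched on both strands as C or T, then TA, 4 bases of A or T, then TA.
Myog: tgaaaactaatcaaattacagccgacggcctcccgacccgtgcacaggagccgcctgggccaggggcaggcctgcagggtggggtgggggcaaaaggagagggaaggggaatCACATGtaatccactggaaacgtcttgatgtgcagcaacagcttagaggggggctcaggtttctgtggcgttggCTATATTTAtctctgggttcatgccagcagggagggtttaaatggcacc
Mef2c: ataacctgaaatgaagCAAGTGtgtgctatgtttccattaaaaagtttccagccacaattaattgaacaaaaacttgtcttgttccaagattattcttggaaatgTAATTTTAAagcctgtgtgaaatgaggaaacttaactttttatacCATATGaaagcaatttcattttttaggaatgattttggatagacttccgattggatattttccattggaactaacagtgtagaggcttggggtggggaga

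In Myog an E-box began 138 bases and a MEF2 motif 64 bases before the RefSeq start; another E-box, 12 bases before that start, lies inside the annotated transcript and is not printed. In Mef2c the E-boxes began 234 and 100 bases before the start, and the MEF2 motif 145 bases before it. Promoter windows of 250 bases were found for 7 of the 9 members, 9 windows in all since Mef2c has several starts. Cdh15 had 3 E-boxes and no MEF2 motif, and a further start of Mef2c had 1 E-box. The windows of Mef2a, Mef2d, Myf5 and Pax7 held neither motif, nor did the remaining start of Mef2c. Of all 32851 windows of this length 66.2% held an E-box and 7.07% held the MEF2 motif. The windows of Cdh15, of Pax7 and of both further Mef2c starts lie wholly inside the annotated genes, upstream of a RefSeq start within them. These matches are a description of letters and show no binding.

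Myf6, also called MRF4, is the main myogenic factor of mature fibres, and it was the only member whose KO and WT libraries did not overlap. It had 239, 263 and 229 counts in KO replicates 1, 2 and 3, against 199, 166 and 183 in WT replicates 1, 2 and 3. In CPM this was 28.3, 31.8 and 28.4 in the KO libraries, against 26.7, 22.7 and 23.2 in the WT libraries. All KO libraries lay above all WT libraries, though KO replicate 1 and WT replicate 1 were close. The mean was 29.5 ± 2.00 CPM in KO and 24.2 ± 2.15 CPM in WT (SD, n = 3 each). KO thus stood at 1.22 times WT, and the 95% interval ran from 1.05 to 1.42 times. In edgeR's quasi-likelihood test its log2 fold change of 0.29 ± 0.10 (SE) had a p of 0.0136 before adjustment, rank 140 among the 13848 genes, and an adjusted p of 0.989, which did not pass. Over 14 alternative settings the log2 fold change lay between 0.23 and 0.36 and the adjusted p between 0.774 and 1.000. The authors' deposited table gives Myf6 a log2 fold change of 0.30, a p of 0.0202 and an adjusted p of 1.

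Measures that could move with Myf6 are given beside it. Summed skeletal muscle fibre markers overlapped between the groups (208980 to 230960 CPM in KO and 220340 to 262120 CPM in WT), with means of 223200 CPM in KO and 240890 CPM in WT. The sum was mostly Ttn, at 140340 ± 10992 CPM in KO and 157530 ± 15187 CPM in WT (SD, n = 3 each). Of these 10 markers 6 were higher and 4 lower in KO, and 3 did not overlap between the groups. All KO libraries lay above all WT libraries for 2 markers and below them for 1, as they did for 4.96% and 5.45% of all genes. Among the 10, Actn2 had the largest log2 fold change, 0.41, and WT replicate 3 stood apart in it at 702 CPM. WT replicates 1 and 2 were at 2435 and 2447 CPM, and KO libraries between 2287 and 2672 CPM. Myh1, a fast myosin heavy chain, was at 4329 ± 347 CPM in KO and 3363 ± 547 CPM in WT (SD, n = 3 each), and Ckm, the muscle creatine kinase, was also higher in every KO library. Myh2, another fast myosin heavy chain, was at 9364 ± 329 CPM in KO and 10380 ± 102 CPM in WT (SD, n = 3 each), lower in every KO library. Outside the list, the fast-fibre genes Actn3 and Pvalb were higher in every KO library, with log2 fold changes of 1.38 and 0.87. Myom2, an M-band gene of fast fibres, went the other way and was lower in every KO library (log2 fold change -0.46). Myh1, Ckm, Myh2, Actn3 and Pvalb were picked after their values were seen. Each of them, and Myom2, had an adjusted p of 0.989 in edgeR's quasi-likelihood test. Other settings did call some of them. Actn3 and Pvalb were the 2 genes called by DESeq2 (adjusted p = 0.0046 and 0.000102), and Actn3 the 1 called by limma voom (0.024). Both passed edgeR's quasi-likelihood test without WT replicate 1. Pvalb and Myh1 passed it without the low-count filter (adjusted p = 3.4e-17 and 0.0013), as did Myom2, which was lower (9.2e-05). In that fit the members' intervals were as narrow as if a gene's own replicate spread hardly counted beside the trend over all genes. Its p-values may therefore be too small. Short genes tended to be higher in KO: log2 fold change and exonic length had a Spearman correlation of -0.186 across 13224 genes, which are not independent. Myf6 has 1263 exonic bases, and the 1500 genes tested within 1.5 times that length either way had a median log2 fold change of 0.04. The part of fibre genes and of transcript length in the Myf6 difference was not tested.

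Myf6 and Myf5 are neighbours on chromosome 10 of mm10, both on the minus strand, at 107492853 to 107494737 and 107482908 to 107486134, with 6718 bases between them. No other annotated gene shares exon bases with either. Their levels were far apart, with Myf6 at 21.2 ± 2.72 CPM per kilobase and Myf5 at 0.558 ± 0.143 CPM per kilobase (SD over 6 libraries). Their log2 fold changes lay on opposite sides of 0, at 0.29 for Myf6 and -0.28 for Myf5, and neither passed. The Myf5 value was -0.076 without KO replicate 2, -0.13 without WT replicate 3, -0.45 without WT replicate 2 and -0.50 without KO replicate 3.

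Among the 4 myogenic factors Myf6 took most of the summed level per kilobase in every library. Its share was 80.1%, 84.7% and 82.8% in KO replicates 1, 2 and 3, against 82.7%, 81.4% and 79.1% in WT replicates 1, 2 and 3. Myog took 9.80% ± 0.741 in KO and 10.6% ± 0.696 in WT, and Myod1 took 5.85% ± 2.47 in KO and 5.73% ± 2.02 in WT (SD, n = 3 each). Myf5 took 1.80% ± 0.620 in KO and 2.58% ± 0.534 in WT (SD, n = 3 each). All 4 shares overlapped between the groups. The difference in the share of Myod1 turned without KO replicate 1, WT replicate 1 or WT replicate 2 (-1.16, -0.77 and -0.08 points). In exact two-sided permutation tests their p-values were 0.4 for Myf6, 0.2 for Myog, 0.9 for Myod1 and 0.2 for Myf5. Adjusted over the 4 shares these were 0.533, 0.4, 0.9 and 0.4. With 3 against 3 libraries these tests could not go below 0.1. Summed over the 4 genes, CPM was 37.7, 39.1 and 36.3 in KO replicates 1, 2 and 3, against 34.0, 29.5 and 31.6 in WT replicates 1, 2 and 3. These sums did not overlap, and they follow Myf6, which held 731 of the KO counts and 548 of the WT counts.

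**Figure D3:**
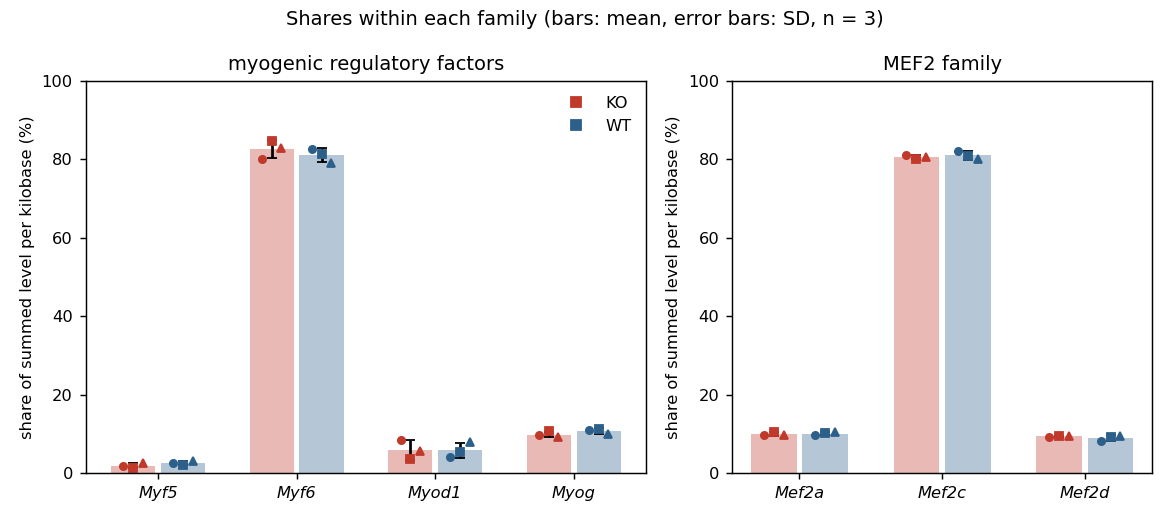
Share of each gene in the summed level per kilobase of its family, in percent, for KO and WT (bars, means; error bars, SD of 3 libraries; points, libraries, with circle, square and triangle for replicates 1, 2 and 3). Myf6 and Mef2c each take around 80% in both genotypes, and the points of KO and WT overlap for every gene.

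Mef2c was the most abundant member per kilobase. The factor is needed for the development and upkeep of skeletal muscle, and endothelial and other cells express it too. It had 6884, 5509 and 5929 counts in KO replicates 1, 2 and 3, against 5720, 5755 and 5730 in WT replicates 1, 2 and 3. In CPM the KO libraries lay at 815, 666 and 734 and the WT libraries at 766, 787 and 726, so that KO replicates 1 and 2 were the highest and the lowest of the 6. The log2 fold change was -0.04 ± 0.08 (SE), and the adjusted p was 0.993 in edgeR's quasi-likelihood test. Without KO replicate 2 the sign turned (0.03). Replicates of Mef2c varied by 7.62% of the mean within groups, where counting alone gives 1.3%. The 10 endothelial markers summed to between 345 and 389 CPM in KO and between 371 and 399 CPM in WT, which overlapped.

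Mef2a, which shares its DNA-binding domain type with Mef2c and is linked to fibre type and mitochondrial genes, was close to level. It had 767, 674 and 672 counts in KO replicates 1, 2 and 3, and 625, 671 and 695 in WT replicates 1, 2 and 3. Its mean was 85.1 ± 4.95 CPM in KO and 87.9 ± 4.02 CPM in WT (SD, n = 3 each), and the libraries of both groups were interleaved. Mef2d, of which a muscle splice form acts late in differentiation, had 298, 245 and 267 counts in KO replicates 1, 2 and 3, and 217, 248 and 259 in WT replicates 1, 2 and 3. Its mean was 32.6 ± 2.85 CPM in KO and 31.9 ± 2.54 CPM in WT (SD, n = 3 each), with a 95% interval of 0.882 to 1.18 times the WT level. The log2 fold change of 0.03 for Mef2d turned without KO replicate 1 (-0.028) or WT replicate 1 (-0.032). Counts were summed over each gene, so splice forms were not separated. The adjusted p was 0.993 for Mef2a and 0.995 for Mef2d in edgeR's quasi-likelihood test. The remaining family gene, Mef2b, was listed at 0 counts in all 6 libraries.

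Libraries did not keep strand, and a small part of the exons of Mef2a and Mef2d lies over other genes. For Mef2a 302 bases (2.06% of its exonic bases) are shared with Lysmd4, and for Mef2d 531 bases (8.87%) with the antisense gene 1700113A16Rik. Reads there cannot be assigned to either strand. The other 7 members share no exon bases with another annotated gene.

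Within the MEF2 family Mef2c took 80.6% ± 0.482 of the summed level per kilobase in KO and 81.0% ± 1.07 in WT (SD, n = 3 each). Mef2a took 9.99% ± 0.446 in KO and 10.03% ± 0.395 in WT, and Mef2d 9.37% ± 0.160 in KO and 8.94% ± 0.680 in WT (SD, n = 3 each). All 3 shares overlapped between the genotypes. The difference turned for Mef2c without WT replicate 1 (0.21 points), and for Mef2a without KO replicate 1, KO replicate 3 or WT replicate 3 (0.11, 0.05 and 0.14 points). The exact two-sided permutation p was 0.7 for Mef2c, 1 for Mef2a and 0.4 for Mef2d, each 1 when adjusted over the 3 shares. Here too the permutation tests could not go below 0.1. The shares depend on the length used. With the longest annotated transcript in place of all annotated exons, Mef2c took 84.6% in KO and 84.7% in WT, while Mef2d took 4.35% in KO and 4.14% in WT.

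Ordered by level per kilobase of annotated exon over all 6 libraries, the members ran from Mef2c at 47.7 CPM per kilobase through Myf6 (21.2), Mef2a (5.89), Mef2d (5.40), Cdh15 (3.47), Myog (2.64), Myod1 (1.49) and Myf5 (0.558) to Pax7 at 0.281. Mef2a and Mef2d had overlapping ranges, as had Myog and Myod1, and Myf5 and Pax7. In each of these pairs the first was nevertheless above the second in all 6 libraries. The ranges of all other neighbours in the order did not overlap. With the longest transcript as the length the order was the same, but Mef2c was at 119 and Mef2a at 15.6 CPM per kilobase, so that Mef2a and Mef2d no longer overlapped.

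**Figure D4:**
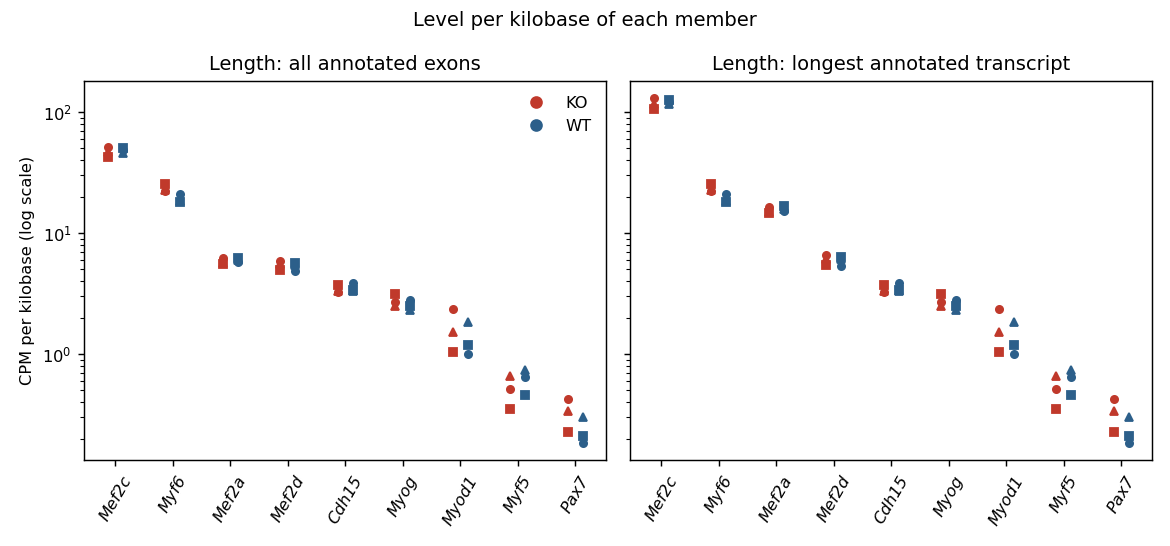
Level of each member in CPM per kilobase on a log scale, per kilobase of all annotated exons (left) and of the longest annotated transcript (right); KO in red, WT in blue, with circle, square and triangle for replicates 1, 2 and 3. The order from Mef2c to Pax7 is the same in both panels, and KO and WT points lie side by side for every gene.

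Genes that work with the members were read from 10 lists, of which 136 different genes were tested. Their log2 fold changes were above 0 for 64 and below 0 for 72, with a median of -0.0037. None passed an adjusted p of 0.05 in edgeR's quasi-likelihood test, and the genes called by DESeq2 and limma voom were on none of these lists. Without the low-count filter, edgeR's quasi-likelihood test called Myom2 and no other gene of these lists. An unadjusted p under 0.05 was reached by 9 genes, 4 higher and 5 lower in KO, which is 6.62% of those tested beside 4.26% of all genes.

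**Figure D5:**
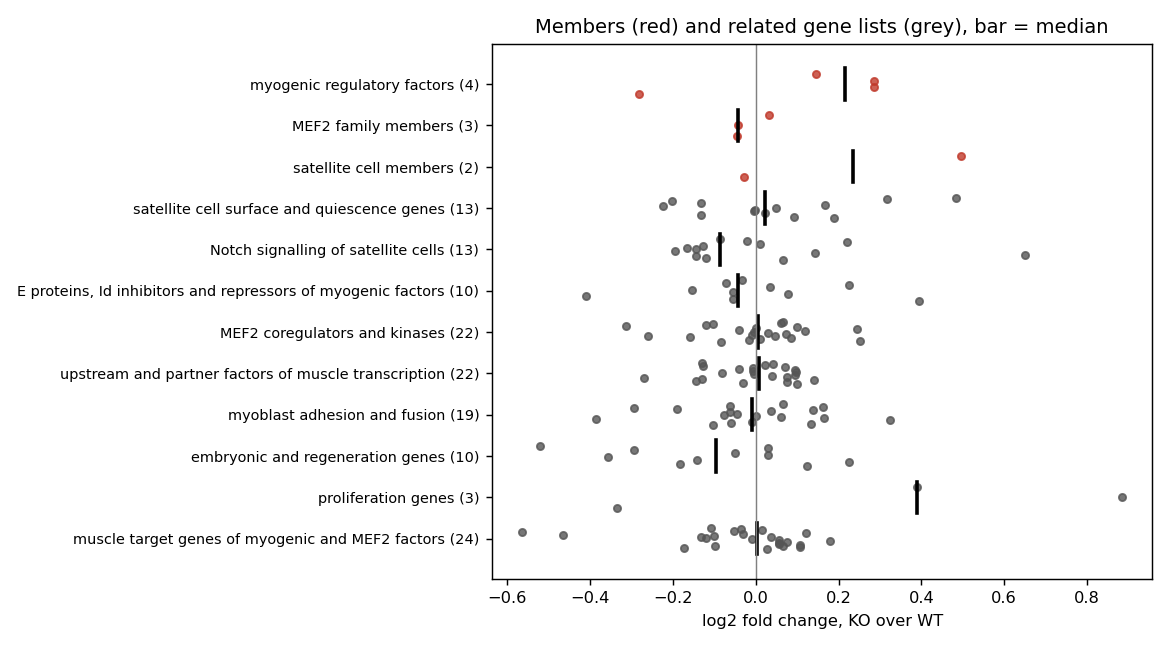
Log2 fold change of KO over WT of each tested gene, by list, with members in red, related genes in grey and the median of a list as a black bar; the number of genes tested stands after each name. List medians lie between -0.10 and 0.39, and the highest, that of proliferation genes, rests on 3 genes.

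Other satellite cell genes showed no common direction. Of 17 listed, 13 were tested, 7 of them above and 6 below their WT level, and the median log2 fold change was 0.02. Ncam1, an adhesion molecule of satellite cells and of denervated fibres, was at 22.1 ± 1.42 CPM in KO and 25.8 ± 1.00 CPM in WT (SD, n = 3 each), with all KO values below WT. Vcam1, another adhesion molecule of satellite cells that endothelium also makes, was at 4.87 ± 0.742 CPM in KO and 3.48 ± 0.711 CPM in WT (SD, n = 3 each). Cd34, shared by satellite cells, endothelium and fibroblasts, differed by 0.19 on the log2 scale. Pax3, the relative of Pax7 that acts in the embryo, was listed at 0 counts in all 6 libraries.

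Notch signalling holds satellite cells in the resting state. Of 13 tested genes of this pathway 5 were above and 8 below their WT level (median -0.09). Hey1, a target gene of Notch, stood at 3.55, 2.54 and 3.71 CPM in KO replicates 1, 2 and 3, against 2.81, 1.78 and 1.65 CPM in WT replicates 1, 2 and 3. The groups overlapped through KO replicate 2 and WT replicate 1. Its log2 fold change of 0.65 had a p of 0.0392 before adjustment and of 0.989 after it in edgeR's quasi-likelihood test. The ligand gene Jag2 differed by -0.14 and the receptor gene Notch3, which pericytes also express, by 0.22. Partners and inhibitors of the myogenic factors had 4 higher and 6 lower of 10 tested, a median of -0.04. The repressor Bhlhe40 differed by 0.40, the E protein gene Tcf3 by 0.22 and Id1, which keeps E proteins from their partners, by -0.41.

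Coregulators and kinases of MEF2 had 11 genes higher and 11 lower of 22. Mapk14, the p38 alpha kinase that phosphorylates MEF2 factors, was at 50.4 ± 2.29 CPM in KO and 42.6 ± 2.49 CPM in WT (SD, n = 3 each), and no KO library was as low as a WT library. Unadjusted, its p was 0.0122, and adjusted 0.989 in edgeR's quasi-likelihood test. Crebbp, an acetyltransferase that coactivates both factor families, was at 27.6 ± 0.667 CPM in KO and 33.1 ± 1.5 CPM in WT (SD, n = 3 each), with all KO values below WT and the same adjusted p. The kinase gene Prkd1 differed by -0.31. Upstream and partner factors were also 11 higher and 11 lower of 22, where Nfatc1 differed by -0.27, Yap1 by -0.13 and Ldb1 by -0.15.

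Genes of myoblast adhesion and fusion had 8 higher and 11 lower of 19, and Nphs1, a relative of the fusion receptors of flies, was listed at 0 counts. Myo10, an unconventional myosin of cell protrusions, was at 51.9 ± 6.51 CPM in KO and 63.7 ± 4.05 CPM in WT (SD, n = 3 each), and its p was 0.0073 before and 0.989 after adjustment in edgeR's quasi-likelihood test. The groups overlapped, since KO replicate 1 was at 59.3 CPM and WT replicate 3 at 59.1 CPM. The tetraspanin gene Cd81 differed by 0.13 and the N-cadherin gene Cdh2 by -0.39. Embryonic and regeneration genes were higher for 4 and lower for 6 of 10, and their median was -0.10. Tnnt2, the cardiac and embryonic troponin T, differed by -0.52, the embryonic light chain gene Myl4 by -0.29 and the growth factor gene Igf2 by -0.36.

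Of 12 proliferation genes 3 had enough counts to be tested. Mcm2, part of the helicase that opens DNA for replication, stood at 2.60, 2.05 and 1.98 CPM in KO replicates 1, 2 and 3, against 1.47, 1.23 and 0.887 CPM in WT replicates 1, 2 and 3. Pcna, the sliding clamp of DNA polymerase, was at 15.2 ± 0.703 CPM in KO and 11.5 ± 2.43 CPM in WT (SD, n = 3 each). Mcm2 entered the test through 3 KO libraries and 1 WT library over the low-count filter, and entry of this kind favours a higher KO value. For both genes the KO libraries were all higher than the WT libraries, with adjusted p-values of 0.989 in edgeR's quasi-likelihood test. The cyclin gene Ccna2 went the other way, at 5.01 ± 0.479 CPM in KO and 6.31 ± 1.64 CPM in WT (SD, n = 3 each). Markers of macrophages, cells that can also divide, summed to between 148 and 166 CPM in KO and between 118 and 160 CPM in WT, which overlapped. Among them Mrc1, picked after its values were seen, was higher in every KO library, at 28.1 ± 1.27 CPM in KO and 21.05 ± 5.30 CPM in WT (SD, n = 3 each). Whether satellite cells or other cells carried these counts was not tested.

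Target genes of the myogenic and MEF2 factors were balanced, since 12 were higher and 12 lower of 24 (median 0.0026). Myom2, an M-band protein of fast fibres, was at 272 ± 57.0 CPM in KO and 376 ± 33.5 CPM in WT (SD, n = 3 each), with no overlap, and its p was 0.0139 before and 0.989 after adjustment in edgeR's quasi-likelihood test. Without the low-count filter the adjusted p of Myom2 in that test was 9.2e-05 (log2 fold change -0.46), a setting whose p-values may be too small. Ppargc1a, the coactivator PGC-1 alpha, was at 58.9, 65.1 and 32.7 CPM in KO replicates 1, 2 and 3, against 75.5, 78.8 and 77.7 CPM in WT replicates 1, 2 and 3. The acetylcholine receptor gene Chrna1 differed by -0.17.

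Summed markers of each other cell type in the muscle overlapped between the groups, though single markers did not. Pecam1, an endothelial marker, was at 80.2 ± 6.43 CPM in KO and 91.2 ± 1.69 CPM in WT (SD, n = 3 each), lower in every KO library. Plin1, an adipocyte marker, was higher in every KO library, with a log2 fold change of 0.36. Both were picked after their values were seen. Fibroblast markers summed to between 992 and 1139 CPM in KO and between 892 and 1267 CPM in WT. Smooth muscle and pericyte markers summed to between 3263 and 3393 CPM in KO and between 3057 and 3405 CPM in WT. That sum was mostly Des, which is also on the fibre list, at 2500 ± 43.3 CPM in KO and 2403 ± 190 CPM in WT (SD, n = 3 each). It therefore says little about smooth muscle and pericytes. Adipocyte markers lay between 321 and 369 CPM in KO and between 302 and 388 CPM in WT, and Schwann cell and nerve markers between 49.9 and 90.6 CPM in KO and between 60.7 and 87.7 CPM in WT. Of the 6 nerve markers tested all 6 were lower in KO, with a median log2 fold change of -0.14, which was 0.0079 without WT replicate 2, -0.013 without KO replicate 2, -0.36 without KO replicate 3 and -0.31 without WT replicate 1. Macrophage markers were higher for 7 of 10, with a median of 0.13 that was 0.017 without WT replicate 2 and 0.22 without WT replicate 3. No marker in these lists was at 0. None of the markers passed in edgeR's quasi-likelihood test.

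For each member the 3 named genes of at least 5 CPM with the most similar course over the 6 libraries were taken by Pearson's r of log2(CPM + 0.5), among 8468 genes. These were Gpr180 (r = 0.989), Trmt2b and Sqrdl for Myf6, Ctsb (0.998), Trp53bp1 and Trpt1 for Myog, and Phldb1 (0.991), Pld3 and Abi3bp for Myod1. For Myf5 they were Hist1h1e (0.981), Lamb1 and Ip6k1, for Pax7 Dusp10 (0.985), Nod1 and Exd2, and for Cdh15 Sltm (0.991), Asb8 and Galt. For the MEF2 genes they were Ccdc21 (0.997), Zhx2 and Rasgrp3 with Mef2c, Mtx3 (0.991), Dennd4c and Bmi1 with Mef2a, and Fam171a1 (0.991), Cby1 and Arhgap19 with Mef2d. With only 6 libraries the best r of a typical gene among the 8468 was 0.990 (median), so such values are ordinary here.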

How the data were processed

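Muscle labelled quadriceps was profiled by RNA sequencing in 3 KO and 3 WT libraries. Per the labels' protocols, RNA was taken up in Trizol and libraries were made with a TruSeq kit, which does not mark strand. The tools TopHat 1.3.3 and edgeR and the build mm10 are named, per the submitters' processing notes. Which counter and annotation were used, and how multi-mapped reads were handled, is not stated there or in the labels. The authors deposited whole-number counts per Ensembl gene, not normalized. They also deposited a log2 fold change, a log2 mean abundance, a p-value and its adjusted form per gene.

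Repeated rows (29 of 37506) held identical counts and were merged. No row stood for unassigned reads. The whole table was fitted with edgeR 4.0.16 in R 4.3.3: filterByExpr kept 13848 genes, scaling was TMM (factors 0.968 to 1.037), and the robust quasi-likelihood test was two-sided on genotype, with Benjamini-Hochberg adjustment over all genes tested and a threshold of 0.05. Standard errors are the log2 fold change divided by the square root of F. All 9 members passed the low-count filter. CPM uses TMM-scaled library sizes, and levels per kilobase use exon lengths from GENCODE M21 (GRCm38, the assembly of mm10). Ratios and shares were compared by exact permutation tests. The test was tested on simulated data first. Replicate pairs differed by more than sampling noise (chi-square per gene 3.46 to 9.57).

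Members and lists were chosen with earlier results of these data known. Named from each related list were up to 3 genes with the smallest unadjusted p, fewer where fewer were tested, and for each member the 3 genes most like it. Genes listed at 0 were named besides. Alternatives were DESeq2 1.42.0, voom of limma 3.58.1, a replicate block, other scalings (RLE, upper quartile, none), other filters (none, or 1 CPM in 3 libraries), another gene length and leaving out each library.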

Additional observations from a re-analysis of the deposited data

How the results depend on the processing

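In all 14 alternatives 0 of the 9 members were called. Myf5, Myf6, Myog, Mef2a and Pax7 kept their direction in each of them. The others turned only when a library was left out: log2 fold changes ran over those fits from -0.072 to 0.59 for Myod1, from -0.12 to 0.029 for Mef2c, from -0.032 to 0.10 for Mef2d and from -0.086 to 0.041 for Cdh15. The corresponding differences in share, KO minus WT in percentage points, ran from -0.30 to 0.14 for Mef2a, from -0.85 to 0.21 for Mef2c and from -1.16 to 1.3 for Myod1, and the log2 ratio of Myog to Myod1 from -0.50 to 0.20. The cause was not tested. Over the same fits the median of the Notch list ran from -0.14 to 0.08 and that of the proliferation list from 0.26 to 0.57. The number of genes called over the whole table, 0 at first, was 19 without the filter on low counts, 2 in DESeq2 and 1 in limma voom, and 0 to 3 with a library left out (3 without WT replicate 1). At an unadjusted p under 0.05 edgeR's quasi-likelihood test had 590 genes. Esr1 passed without the filter (log2 fold change -1.44, adjusted p = 0.000142), as did Myom2, Myh1 and Pvalb among the genes named here. These p-values of edgeR's quasi-likelihood test may be too small, since replicate spread of single genes hardly counted in the members' intervals of that fit. Where a group was left with 2 libraries, each fit pooled the spread.

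With the replicate block 0 genes were called, and the log2 fold change of Myf6 was 0.28 (adjusted p = 0.908). The numbers are not shown to pair the samples: deviations of same-numbered libraries correlated at -0.0146, 0.159 and 0.0377. Pax7, Myf5, Myod1 and Myog averaged under 5 CPM, where counting alone gives a spread of 17.9% to 33.0% of the mean. For all members but Myf5, Myog and Cdh15 the observed spread was above that of counting. The margin was narrow for Pax7 (29.5% against 27.6%) and Myf6 (7.74% against 6.85%). With 3 libraries per group such spreads are imprecise, and the excess was not tested.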
